A study of Mus musculus with 7 samples.

Results

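Activator protein 1 (AP-1) is a dimer of basic leucine zipper (bZIP) proteins, and 10 genes that encode its subunits or close relatives are described here. They were taken by name from the 21938 protein-coding genes of the GENCODE annotation on GRCm38. They are the Fos family (Fos, Fosb, Fosl1 and Fosl2), the Jun family (Jun, Junb and Jund) and the related genes Atf3, Batf and Maff. The cells were 3 tumour cell clones of Cdkn2ab-/- mice on an FVB/129P2 backcross background, which lack p15Ink4b, p16Ink4a and p19Arf. Each clone was picked from soft agar after culture of a separate skin trichoblastic carcinoma, so each stands for 1 outgrowing cell line and not for a whole tumour. The cells grew in medium with fetal calf serum, and the methods also name a HITES medium that contains EGF and insulin, without saying which was used for ChIP. The labels give no age. H3K27-Ac, an acetylated histone that marks active promoters and enhancers, was measured by ChIP-seq in 4 libraries, 1 each of clones 1 and 2 and 2 of clone 3 that were pooled, with IgG as the control in 3 libraries, 1 of clone 1 and 2 of clone 3. No IgG library of clone 2 is used here, which bears on each fold enrichment of that clone, since the control behind its list is known only by its likeness to that of clone 1, given with the depths. There is 1 condition, so each comparison is between genes of the same clone, with the spread over the 3 clones as its error.

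Fos proteins pair with Jun proteins and bind mainly TGACTCA and TGAGTCA, while Jun proteins can also pair with each other. The search here used the looser TGANTCA, where N is any base, so its counts include sites with A or T in the middle. Fos, Fosb, Junb, Jun, Atf3 and Maff are immediate early genes in many cell types, switched on by growth factors and stress through MAP kinases before new protein is made. Maff is a small Maf protein without a transactivation domain, and Batf, which also lacks one, is best known from lymphocytes. In the skin, AP-1 is known as a regulator of keratinocyte proliferation and differentiation and as an effector of Ras signalling in carcinogenesis.

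The peak lists held 29182, 49587 and 29277 peaks for clones 1, 2 and 3. The estimated depth was 13.3 M, 13.7 M and 35.8 M ChIP reads, and the weakest listed peaks rested on 13, 12 and 25 reads at the summit, and weaker sites are missing from the lists. Fold enrichment is the ratio of scaled ChIP reads to local control reads at a peak's summit, with 1 added to both. The scale was 0.424, 0.428 and 0.308 control reads per ChIP read in clones 1, 2 and 3. The ratio is comparable within a list only. Its median over the promoters of all genes with a promoter peak was 18.8, 39.3 and 8.30 in clones 1, 2 and 3. Control reads were raised on chromosome 8, which carries Junb and Jund, to between 1.38 and 1.41 times the mean of the other autosomes, and on chromosome 15, which carries Maff, to between 1.33 and 1.39 times. At summits of 2 clones within 50 bases of each other, the logarithm of the local control correlated with r = 0.906 between clones 1 and 2 (n = 6961), and with 0.145 and 0.136 between either and clone 3. It was equal to within 0.001 reads at 37.5%, 3.90% and 4.10% of these summits, so the controls of clones 1 and 2 cannot be taken as independent. Each SD of fold enrichment is still over all 3 clones, and this likeness of the controls enters it. Of 12 keratinocyte and hair follicle markers, only Cdh3, Sox9 and Itga6 carried H3K27-Ac at the promoter in every clone, and 7, with Krt5, Krt17 and Trp63 among them, in none. Those shares stand beside 46.5% of all protein-coding genes with a promoter peak in every clone and 42.6% with none in any. Of 10 fibroblast and mesenchymal markers, 5 carried it in every clone, as did 1 of 4 melanocyte markers (Pmel) and 0 of 4 endothelial ones, while the 6 blood markers had no promoter peak in any clone. The part of these cell identities in the results was not tested.

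The promoter sequences are shown for the cAMP response and AP-1-like elements that they hold. Those below are the 250 bases before the RefSeq start in GRCm38.p6, written from 5′ to 3′ along the gene, of 6 promoters with a peak within 1 kb in each clone. Capitals mark TGACG, TGACGTCA, TGACATCA and TTACCTCA on either strand, where TGACG is the shared part of the cAMP response element and is contained in TGACGTCA.
Fos (chr12:85473640-85473889, plus strand): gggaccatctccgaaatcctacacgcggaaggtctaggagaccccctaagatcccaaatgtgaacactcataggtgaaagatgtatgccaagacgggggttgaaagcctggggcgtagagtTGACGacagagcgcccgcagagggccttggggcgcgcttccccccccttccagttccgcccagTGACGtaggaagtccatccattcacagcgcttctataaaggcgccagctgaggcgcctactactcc
Fosb (chr7:19310046-19310295, minus strand): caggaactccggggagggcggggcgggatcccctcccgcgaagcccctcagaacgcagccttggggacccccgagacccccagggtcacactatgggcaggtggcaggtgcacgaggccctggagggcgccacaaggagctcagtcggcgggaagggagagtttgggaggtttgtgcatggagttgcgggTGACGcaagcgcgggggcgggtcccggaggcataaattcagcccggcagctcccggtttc
Jun (chr4:95052223-95052472, minus strand): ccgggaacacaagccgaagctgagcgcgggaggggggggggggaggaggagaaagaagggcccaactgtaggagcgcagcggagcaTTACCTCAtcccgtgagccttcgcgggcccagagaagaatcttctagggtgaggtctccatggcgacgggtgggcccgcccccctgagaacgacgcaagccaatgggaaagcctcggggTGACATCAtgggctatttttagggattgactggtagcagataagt
Junb (chr8:84978749-84978998, minus strand): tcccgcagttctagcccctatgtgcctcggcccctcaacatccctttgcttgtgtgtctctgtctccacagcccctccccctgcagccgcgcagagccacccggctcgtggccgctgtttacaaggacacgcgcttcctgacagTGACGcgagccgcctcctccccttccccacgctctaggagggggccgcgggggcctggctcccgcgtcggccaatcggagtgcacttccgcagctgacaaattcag
Atf3, inner start (chr1:191183334-191183583, minus strand): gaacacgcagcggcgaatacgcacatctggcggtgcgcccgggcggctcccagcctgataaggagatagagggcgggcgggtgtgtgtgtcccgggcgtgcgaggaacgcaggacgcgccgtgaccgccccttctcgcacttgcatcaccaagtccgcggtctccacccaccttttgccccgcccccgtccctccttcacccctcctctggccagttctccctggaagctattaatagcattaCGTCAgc
Maff, second start (chr15:79347270-79347519, plus strand): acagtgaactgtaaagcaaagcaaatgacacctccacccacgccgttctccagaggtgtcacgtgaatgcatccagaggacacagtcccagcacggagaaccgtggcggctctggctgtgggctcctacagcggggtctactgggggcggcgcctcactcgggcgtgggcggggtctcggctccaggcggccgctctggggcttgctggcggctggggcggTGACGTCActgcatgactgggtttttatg
Fos held TGACG at -129 and at -66, counted from -1 at the base before the start, and Fosb held it at -60. Jun held TGACATCA at -45 and TTACCTCA at -164, a pair of AP-1-like sites through which Jun is known to act on its own promoter. Maff held the full element TGACGTCA at -29. Of 32851 RefSeq promoters, 17.8% held TGACG, 1.55% TGACGTCA, 2.93% TGACATCA and 0.730% TTACCTCA. Among the 11063 with a peak in all 3 clones the shares were 29.8%, 3.01%, 1.28% and 0.390%. The table held 11 promoters of 9 of the genes, with none for Fosl1, and TGACG was in 7 of the 11. Those with it include Batf, which had no promoter peak, and both the second and the last start of Maff. TGACG was chosen after its values were seen, so this count is a description only. Their median GC content was 61.2%, and that of the promoters with a peak was 61.6%. TGANTCA was in 0 of the 11, where 6.75% of all promoters and 4.18% of those with a peak held it. The CArG box of serum response factor was in 0 of the 11 as well, where 1.47% of all promoters held it. These counts describe the 250 bases only. For some of the 11 these are not the promoter described here, since the Fosl2 stretch lies wholly inside an exon, those of Batf and of the last Maff start partly so, and the RefSeq start of Jund is base 70697739 where GENCODE has 70698949.

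H3K27-Ac marked the promoters of 9 of the 10 genes in all 3 clones. A promoter peak was taken as one within 1 kb of any annotated start. Of all protein-coding genes, 49.8%, 56.9% and 48.1% had such a peak in clones 1, 2 and 3, and 46.5% had one in all 3. Batf was the exception, with no promoter peak in any clone, as was found for 42.6% of protein-coding genes. When the peak had to cover a start base itself, 7 of the 10 genes kept one in all 3 clones, and Jun in clone 3 and Jund in clone 1 lost theirs. Every promoter was then ranked by the fold enrichment of its strongest peak among the promoters of the same clone that had one, and a percentile of 90 means that 90% of them were weaker. The median percentile of the 9 genes was 88.5, 86.2 and 79.9 in clones 1, 2 and 3. Fos and Fosb were at or above the 90th percentile in all 3 clones, that is 2 of the 9, where 3.63% of the 10209 genes with a promoter peak in every clone were.

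**Figure D1:**
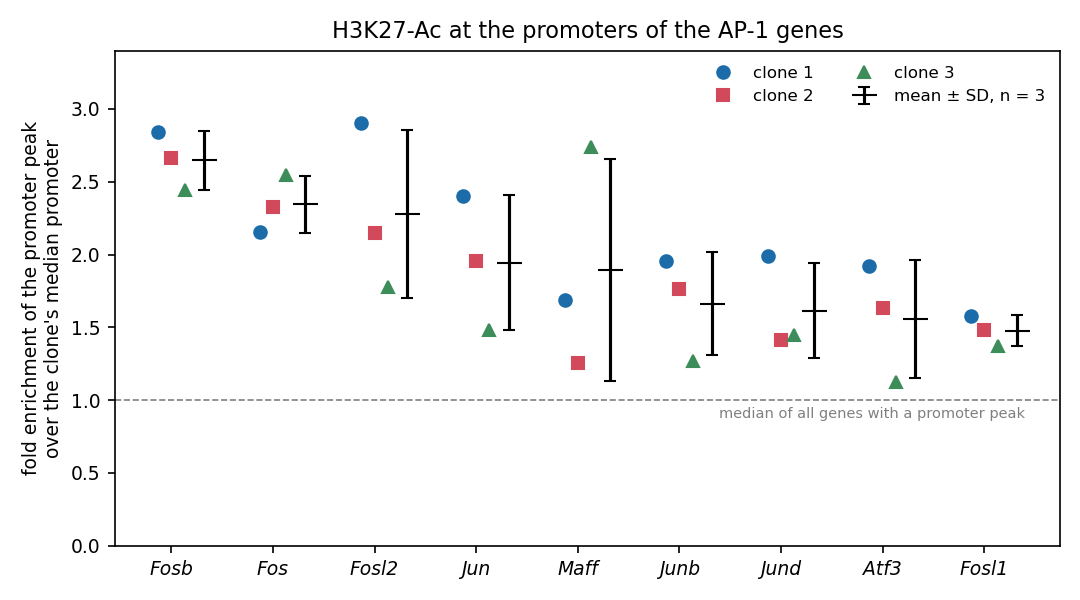
Fold enrichment of the strongest promoter peak of each AP-1 gene (x axis), divided by the median over all promoters with a peak in the same clone (y axis). Points are the 3 clones, black bars the mean ± SD (n = 3), and the dashed line the median promoter. Every point lies above 1, Fosb has the highest mean at 2.65, and Maff has the widest spread, with clone 3 at 2.74 and clone 2 at 1.25.

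Fosb, whose protein also exists in a truncated form that lacks the transactivation domain, had the highest mean fold enrichment of the group. Its peak lay over the start with 212, 438 and 216 ChIP reads at the summit in clones 1, 2 and 3, and it ranked at the 98.2, 99.8 and 98.4 percentiles. Divided by the median promoter of the same clone, its fold enrichment was 2.65 ± 0.202 (SD, n = 3). Fos, the founding member of the family, followed with 189, 425 and 190 reads, at the 91.4, 98.1 and 98.9 percentiles, and with 2.34 ± 0.197 (SD, n = 3) times the median promoter. The difference between Fosb and Fos was larger than either SD, but clone 3 went the other way, with 2.44 for Fosb and 2.55 for Fos. The local control was 0.698, 0.806 and 2.34 reads at the Fosb summit and 1.00, 1.00 and 1.82 at that of Fos. The part of the control in this difference was not tested. Fosb led in clone 2 alone, since Fosl2 was higher in clone 1, with 2.91 against 2.84, and Maff in clone 3, with 2.74. The summits lay just upstream of the nearest annotated start, at -0.15 to -0.19 kb for Fos and at -0.12 to -0.15 kb for Fosb.

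Fosl2, which encodes Fra-2, had one of the widest peaks of each list. A single peak of 7314, 7492 and 7072 bases ran over its first starts in clones 1, 2 and 3, and ranked 15, 14 and 11 by length among all peaks of the respective list. The summit held 272, 428 and 140 reads, and the enrichment was 2.28 ± 0.577 (SD, n = 3) times the median promoter. Clone 2 had another 2 peaks near an inner start of a transcript with a retained intron, which clones 1 and 3 lacked. Fosl1, which encodes Fra-1, had the lowest mean of the 9 genes relative to the median, at 1.48 ± 0.105 (SD, n = 3), and also the narrowest spread. It was the lowest in clone 1 only, since Maff and Jund were lower in clone 2 and Atf3 and Junb in clone 3. It rested on 131, 262 and 94 reads, at the 77.6, 75.5 and 74.4 percentiles.

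Among the Jun genes, Jun itself had the highest mean fold enrichment at the promoter, 1.94 ± 0.461 (SD, n = 3) times the median. In clones 1 and 3 its signal was listed as a pair of peaks, one over the gene and one upstream of the start, and the upstream one had the higher summit. The summit reads were 211, 356 and 156. Junb, which can repress Jun targets, had 182, 389 and 115 reads and 1.66 ± 0.354 (SD, n = 3) times the median. Its peak was 8326 bases long in clone 1 and 6071 in clone 2, at ranks 10 and 47 by length. In clone 3 it was listed as a pair of peaks, of 2952 and 2034 bases. Jund, which is expressed in most tissues without a stimulus, had 245, 386 and 167 reads and 1.61 ± 0.324 (SD, n = 3) times the median. By reads, Jund was thus above Jun in every clone. The local control was 1.80, 2.00 and 3.38 reads for Jund and 1.00, 1.00 and 3.00 for Jun. Whether the raised control on chromosome 8, or a gain of that chromosome, plays a part in the Junb and Jund values was not tested.

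Maff stood out in reads more than in fold enrichment. Its promoter peak held 297, 458 and 245 reads in clones 1, 2 and 3, the most of the 9 genes in every clone. By reads it ranked at the 99.6, 99.9 and 99.7 percentiles of all promoters with a peak, and by fold enrichment at the 80.8, 64.7 and 99.4 percentiles. The local control was 3.00 reads in clones 1 and 2 and 2.37 in clone 3, while Fos had 1.00, 1.00 and 1.82. In clone 3 Maff was the strongest of the 9 genes relative to the median. Whether the raised control on chromosome 15, or a gain of that chromosome, plays a part in the Maff values was not tested. The study reports a gain of the FVB/N copy of that chromosome in the cell lines used for ChIP-seq. Maff lies in the segment of that chromosome to which the study mapped the skin tumour trait.

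Atf3, a stress-induced gene, has an outer start at base 191218039 and inner ones at 191183340 and 191183108, and H3K27-Ac lay at the inner ones only. The strongest peak at the inner starts had 160, 289 and 148 reads and was 1.56 ± 0.405 (SD, n = 3) times the median. At the outer start, the nearest peak was 5.85, 1.39 and 5.89 kb away in clones 1, 2 and 3. The nearest one in clones 1 and 3 was a strong peak upstream of the gene, described below. In clone 2 it was a weak intronic peak of 42 reads.

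Read from the highest mean to the lowest, the order of the promoters relative to the median was Fosb, Fos, Fosl2, Jun, Maff, Junb, Jund, Atf3 and Fosl1. Of the steps between neighbours, only that from Fosb to Fos exceeded the larger of their SDs, and clone 3 had these genes in the opposite order. These SDs are of each gene over the clones and not of the difference between neighbours within a clone, which was not computed.

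Batf had no peak near a start. The nearest to its first start were 11.4 kb away in clones 1 and 2 and 18.6 kb away in clone 3, all inside introns. One intronic peak was present in all 3 clones with 36, 60 and 53 reads. The other was listed in clones 1 and 2 with 53 and 81 reads. Jdp2, the neighbouring bZIP gene that encodes a repressor of AP-1, did carry a promoter region within the 100 kb, with 162, 397 and 155 reads.

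**Figure D2:**
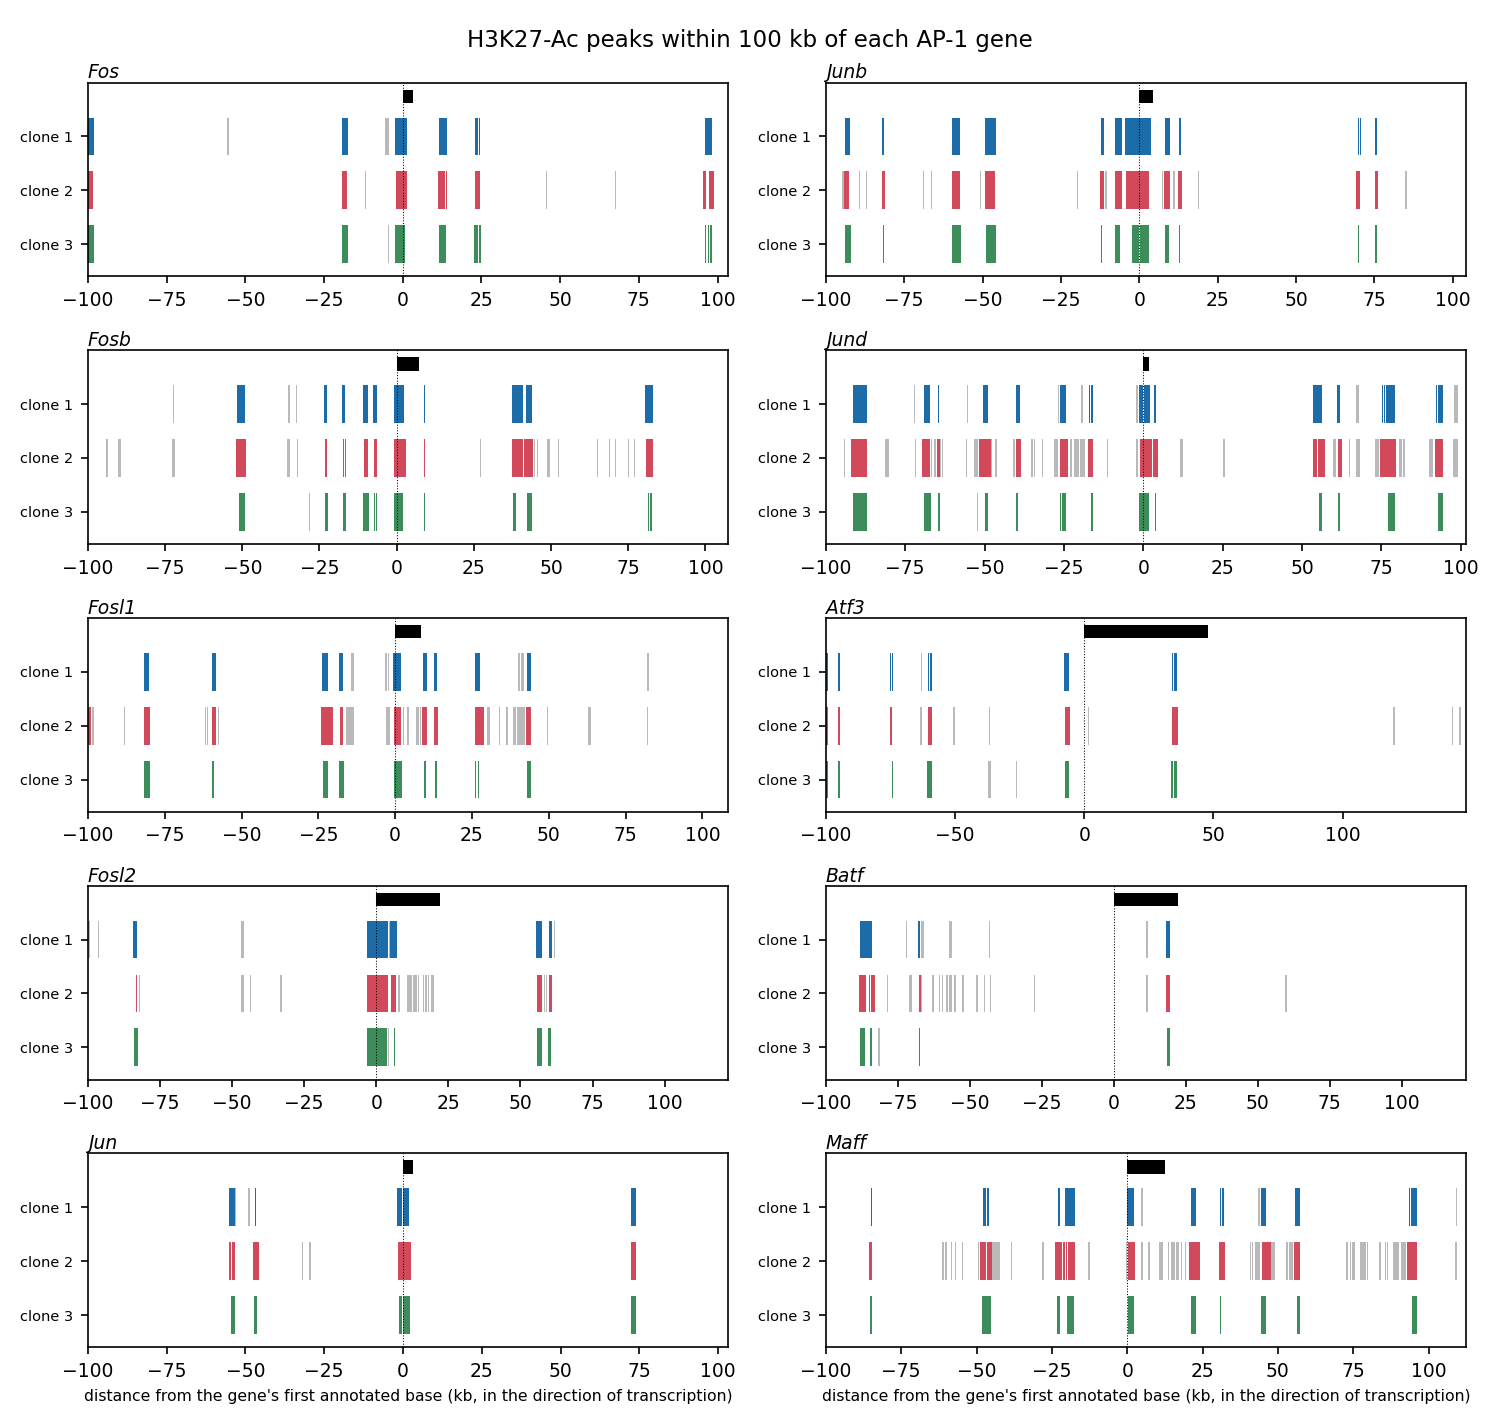
Peaks within 100 kb of each AP-1 gene in the 3 clones, as distance from the gene's first annotated base in the direction of transcription (x axis, kb). Coloured bars are peaks in regions found in all 3 clones, grey bars are all others, and the black bar is the gene. Batf has no bar at its start, Atf3 has bars on both sides of its first base but none over it, and clone 2 has the most grey bars around Maff and Jund.

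Around the genes, peaks were denser than around the median gene. The length under peaks from 100 kb before to 100 kb after the gene had a median over the 10 genes of 17.2, 24.1 and 12.2 kb in clones 1, 2 and 3, where the median over all protein-coding genes was 3.77, 5.38 and 3.88 kb. With the peaks at promoters of other genes left out, the medians, averaged over clones, were 8.91 ± 2.41 kb (SD, n = 3) for the 10 genes and 1.44 kb for all genes. Each gene's own promoter peaks stayed in. All genes include the 42.6% with no promoter peak in any clone, while 9 of the 10 genes had one in every clone. This measure was not compared with genes that have a promoter peak. Jund was at the 99.4, 99.7 and 99.2 percentiles of this measure, with 29.7, 59.1 and 20.5 kb under peaks, and of its distal peaks 15 of 24, 23 of 47 and 11 of 16 lay at promoters of other genes. Fosl2 had no distal peak at a promoter of another gene in any clone. Jun was the lowest of the 9 genes with a promoter peak in clones 2 and 3, with 8.10, 10.15 and 6.74 kb in clones 1, 2 and 3.

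Merged over the clones, 262 peak regions lay within 100 kb of the genes, and 78 of them, 29.8%, were found in all 3 clones. Over all merged regions the share was 27.3%. Regions found in clone 2 alone made up 143 of the 262, or 54.6%, against 43.8% over all regions. Without clone 2 the shares in both remaining clones were 61.6% near the genes and 53.2% over all regions. Fos had the largest share of regions in all 3 clones, 6 of 12, and Batf the smallest, 3 of 24. Maff had 38 of its 53 regions in clone 2 only, and Jund 26 of 47.

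Of the 78 shared regions, 29 lay away from the starts of all protein-coding genes. Those around Fos numbered 4 and lay 17.5 kb upstream of the gene and 8.65, 20.0 and 93.4 kb beyond its end. The first had 160, 215 and 183 reads and the second 129, 343 and 150, that is 0.772 ± 0.238 and 0.760 ± 0.067 (SD, n = 3) of the reads at the Fos promoter in the same clone. The third had 0.361 ± 0.046 and the farthest 0.243 ± 0.078 (SD, n = 3).

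Fosb had 5 such regions, of which the strongest lay 9.23 kb upstream, with 107, 224 and 160 reads and 0.586 ± 0.134 (SD, n = 3) of the promoter's. It overlaps the end of a long non-coding RNA, D830036C21Rik, which also spans a pair of weaker ones further upstream. The farther of that pair holds the first base of another such RNA, Gm44698, at 19333129. An enhancer and a promoter of Gm44698 cannot be told apart there. Junb had a single region away from promoters, 5.78 kb upstream, with 108, 232 and 103 reads and 0.695 ± 0.174 (SD, n = 3) of the promoter's. Both regions of Jun lie upstream in the antisense RNA gene Junos, with 0.272 ± 0.100 and 0.157 ± 0.042 (SD, n = 3) of the promoter's reads. Junos starts at base 95051534, inside a peak counted for the Jun promoter in each clone. These lists cannot assign that peak to Jun or to Junos alone. Fosl1, Fosl2, Jund and Maff had means of at most 0.540, the value of the strongest Jund region.

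Atf3 was the only one of the 9 genes with a region away from promoters that had more reads than its own promoter. That region, chr1:191223635-191225930, had 203, 406 and 165 reads against 160, 289 and 148, a ratio of 1.26 ± 0.145 (SD, n = 3). It lies 5.78 kb upstream of the outer start and holds the start of a long non-coding RNA, D730003I15Rik, at base 191224454, so an enhancer of Atf3 and a promoter of that RNA cannot be told apart in these lists.

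**Figure D3:**
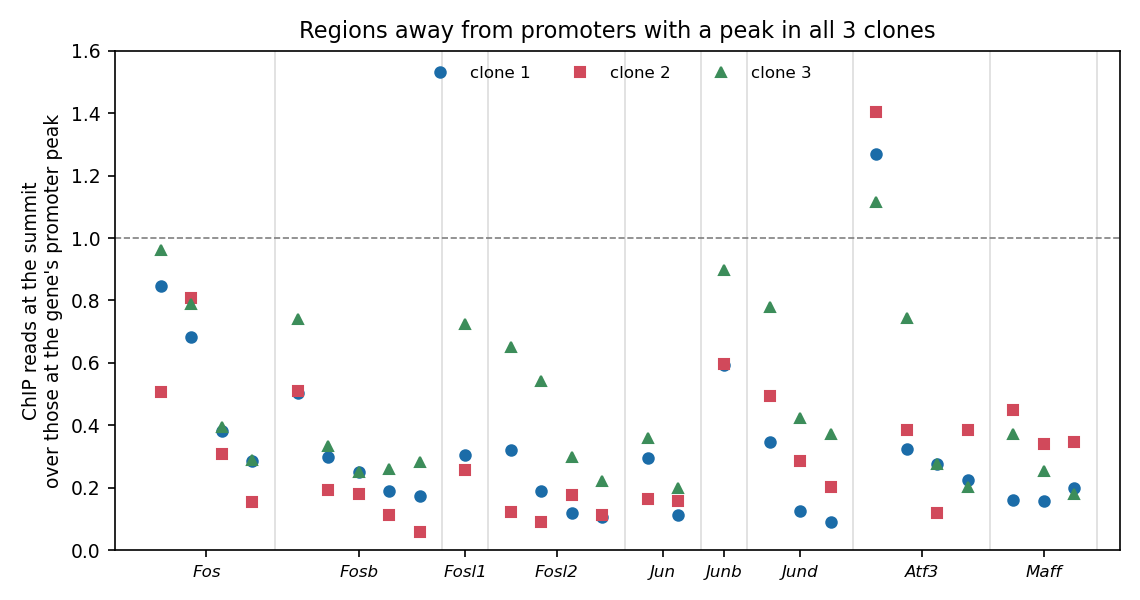
ChIP reads at the summit of each region that lies away from promoters and has a peak in all 3 clones, divided by the reads at the promoter peak of the AP-1 gene within 100 kb in the same clone (y axis). Promoters here are those of protein-coding genes. Regions are grouped by gene (x axis) and in the order of their reads, and points are the 3 clones. The first Atf3 region is the only one above the dashed line at 1, and the first 2 Fos regions and the Junb region come next.

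Sequences with TGANTCA are shown from these regions, as examples of sites away from promoters near the AP-1 genes. For each gene but Batf, whose 2 regions had none, the lines below give 51 bases around the TGANTCA that lies nearest to the median summit, in the region with the most reads in its weakest clone among those with a site. Capitals mark TGANTCA, and the bases are those of the reference genome, not of the FVB or 129P2 alleles. The Fosb site is TGAATCA, whose middle base is neither C nor G.
Fos (chr12:85570864-85570914, plus strand): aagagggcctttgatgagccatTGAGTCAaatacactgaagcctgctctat
Fosb (chr7:19327125-19327175, plus strand): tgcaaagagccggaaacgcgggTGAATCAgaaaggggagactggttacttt
Fosl1 (chr19:5430028-5430078, plus strand): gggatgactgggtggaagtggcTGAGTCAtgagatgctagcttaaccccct
Fosl2 (chr5:32192212-32192262, plus strand): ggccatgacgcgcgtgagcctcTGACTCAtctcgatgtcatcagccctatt
Jun (chr4:95105546-95105596, plus strand): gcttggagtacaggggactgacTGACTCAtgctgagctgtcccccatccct
Junb (chr8:84985729-84985779, plus strand): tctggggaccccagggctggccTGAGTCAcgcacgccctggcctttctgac
Jund (chr8:70682915-70682965, plus strand): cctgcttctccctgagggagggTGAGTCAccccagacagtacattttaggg
Atf3 (chr1:191224421-191224471, plus strand): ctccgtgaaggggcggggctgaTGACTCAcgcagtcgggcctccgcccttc
Maff (chr15:79299915-79299965, plus strand): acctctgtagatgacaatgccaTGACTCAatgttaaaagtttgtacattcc
TGANTCA was present in 20 of the 29 regions, or 69.0%, where 60.1% of the 6034 shared regions away from promoters held it in the whole series. The regions near the genes had a median length of 1.75 kb against 1.5 kb, and the number of sites per kb was 0.650 against 0.603. The strongest regions of Fos, those at 17.5 kb upstream and at 8.65 kb and 20.0 kb downstream, held none. All 4 regions of Fosl2 and all 4 of Atf3 held one. In the strongest Atf3 region the site ends at base 191224449, just before the first base of D730003I15Rik. At promoters, 25 of 49 shared regions near the genes held TGANTCA, or 51.0% against 30.1% of 9698, at median lengths of 2.56 and 1.68 kb and with 0.273 and 0.225 sites per kb. Within 100 bases of a summit, TGANTCA was found at 6.37% ± 0.510 (SD, n = 3) of the peaks near the genes and at 4.94% ± 0.730 (SD, n = 3) of all peaks. For peaks away from promoters these shares were 7.41% ± 0.840 and 6.66% ± 0.690, a difference smaller than the larger SD. The peaks near the genes with a site at the summit numbered 8 of 138, 17 of 261 and 7 of 103 in clones 1, 2 and 3. A site in the sequence does not say that AP-1 was bound, which was not measured.

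The peaks also formed long clusters. Neighbouring peaks were joined across gaps up to the usual stitching distance of super-enhancer calls, and the resulting domains of a clone were ranked by the bases under their peaks. Of the 9 genes, 6, 7 and 5 had their promoter in one of the top 5% of domains of clones 1, 2 and 3. Of all genes with a promoter peak 9.86%, 17.3% and 8.97% did. The median percentile of the 9 genes' domains was 98.8, 98.5 and 96.4, where the median over all genes with a promoter peak was 65.5, 74.3 and 64.7.

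Fos, Fosb, Fosl1, Fosl2 and Junb were in the top 5% in every clone. When peaks with a −log10 q under 5 were dropped, Fosl1 in clone 3 fell to rank 1029 of 12993 and left the top 5%, while the other 4 genes stayed in it in each clone. The Fos domain ran over 44.1, 43.7 and 29.7 kb with 8, 6 and 5 peaks and ranked 132 of 14560, 618 of 18280 and 173 of 16371. Fos was the only protein-coding gene with a start in it, in each clone, and the region 17.5 kb upstream was part of it in clones 1 and 2. The Fosb domain of 44.4, 44.7 and 37.7 kb ranked 223, 602 and 149, and in clones 1 and 2 it also held a start of Ercc1, a DNA repair gene. The Fosl2 domain ranked 165, 278 and 147 and held no other gene. In clones 1 and 3 most of its bases came from the single wide promoter peak.

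The Fosl1 and Junb domains lie among many genes. That of Fosl1 ranked 62, 100 and 592, with 14.5, 26.3 and 4.89 kb under peaks. It held starts of 9 genes in clones 1 and 2, namely AI837181, Ccdc85b, Cfl1, Ctsw, Drap1, Efemp2, Fibp, Fosl1 and Mus81, and of 5 of them in clone 3. That of Junb ranked 65, 255 and 117 and held the same 5 genes in each clone, Gm49661, Hook2, Junb, Prdx2 and Rnaseh2a. In such domains the bases under peaks cannot be assigned to the AP-1 gene alone.

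**Figure D4:**
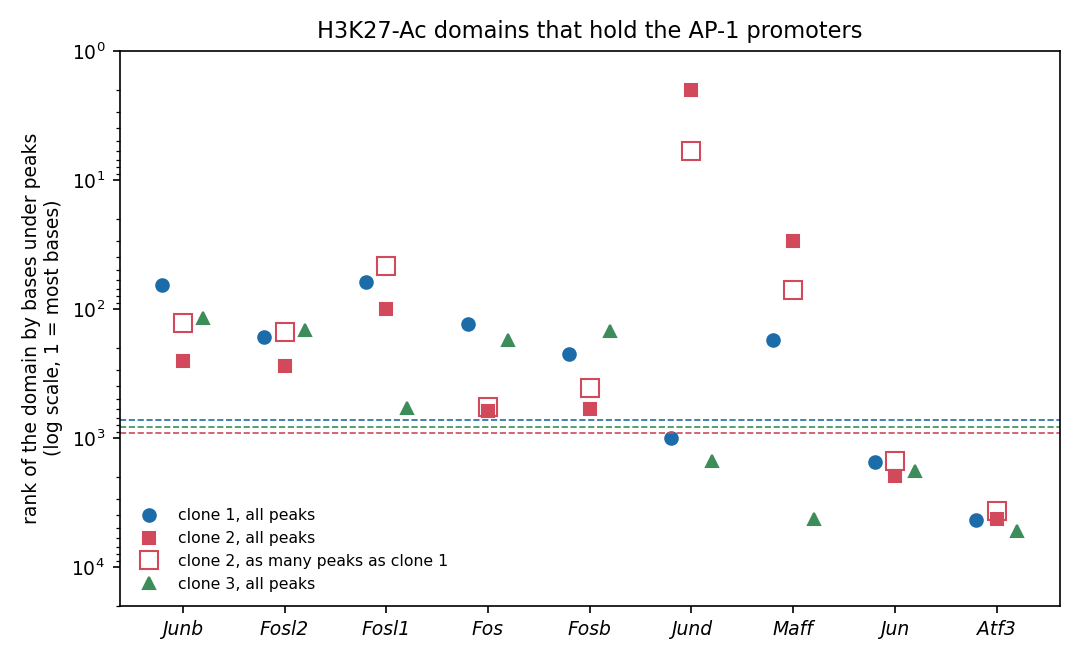
Rank of the domain that holds the promoter of each AP-1 gene (y axis, log scale, 1 for the most bases under peaks), by clone. Filled symbols use all peaks, open squares use as many peaks of clone 2 as clone 1 has, and dashed lines mark the top 5% of each clone's domains. Junb, Fosl2, Fosl1, Fos and Fosb are above the lines in every clone, while Jund at rank 2 in clone 2 and Maff at rank 4257 in clone 3 stand far from the other clones.

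Jund and Maff differed most between clones. The Jund domain was 6.44 and 5.11 kb long in clones 1 and 3, ranked 1010 and 1506 and held Jund alone. In clone 2 it was 272 kb long with 79 peaks and 85.9 kb under them, ranked 2 of 18280, and held starts of 17 genes. With clone 2 reduced to the 29182 peaks that clone 1 has, it was 142 kb long with 32 peaks and ranked 6. The Maff domain held the promoter peak alone in clone 3, at 1.93 kb and rank 4257. It was 57.2 kb long with 9 peaks and rank 173 in clone 1, and 119 kb long with 41 peaks and rank 30 in clone 2. When peaks with a −log10 q under 5 were dropped, the Maff domain of clone 1 also shrank to its promoter peak, at rank 2790, while that of clone 2 ranked 90.

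Jun and Atf3 had compact domains in each clone. The Jun domain was 3.78, 4.13 and 3.35 kb long and ranked 1550, 1969 and 1806, so that its percentile was 89.2 ± 0.199 (SD, n = 3), the narrowest spread of the 9 genes. The Atf3 domain of 2.17, 2.26 and 2.04 kb ranked 4315, 4252 and 5284. The strong region upstream of Atf3 is more than the joining distance away from the promoter peak and was not part of it.

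Other genes of the pathway were read from lists chosen for it. Among 27 other bZIP genes, 21 (77.8%) carried a promoter peak in every clone and 2, Nfe2l3 and Nrl, had none in any, beside the 46.5% over all protein-coding genes. Those with the highest mean domain percentile were Mafk (98.2), Nfe2l1 (97.4), Atf5 (96.7), Mafg (96.0) and Jdp2 (94.8). Mafk and Mafg encode the small Maf proteins next to Maff. The promoter of Mafg was at the 99.8, 99.4 and 99.5 percentiles of fold enrichment in clones 1, 2 and 3. Batf3, a paralogue of Batf, had a promoter peak in clone 2 only, at the 11.2 percentile.

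Promoter peaks were found in every clone for 15 of 16 kinases and factors upstream of AP-1 (93.8%), beside 46.5% of all protein-coding genes. Mapk10, a Jun kinase gene known mainly from the nervous system, had none in any, whereas the Jun kinase genes Mapk8 and Mapk9 had one in each. The promoter of Srf, the factor that binds the CArG box, was at the 95.9, 99.98 and 90.3 percentiles, and that of Elk4, its partner, at the 99.2, 95.8 and 99.9. The highest mean domain percentiles were those of Mrtfa (94.4), Elk3 (93.5), Map2k7 (91.9), Srf (91.9) and Map3k1 (89.8).

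A promoter peak in every clone was also found for 24 of 26 other immediate early genes (92.3%), beside 46.5% of all protein-coding genes. Arc and Dusp2 lacked one in clone 3. The highest mean domain percentiles were those of Dusp1 (99.6 ± 0.2), Zfp36 (99.4 ± 0.150), Dusp6 (98.5 ± 1.98), Btg2 (98.4 ± 1.18) and Ier5l (97.9 ± 2.27; SD, n = 3). Dusp1 and Dusp6 encode phosphatases that switch MAP kinases off, and Zfp36 encodes a protein that destabilises messenger RNAs of early genes. The domain of Dusp1 ranked 95, 50 and 61 in clones 1, 2 and 3, ahead of each AP-1 gene in clone 3, behind Fosl1 and Junb in clone 1 and behind Jund and Maff in clone 2. The median over the list was 96.0, and for the other bZIP genes and the upstream kinases and factors it was 91.1 and 81.8. Over all genes with a promoter peak it was 65.5, 74.3 and 64.7 in clones 1, 2 and 3.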

How the data were processed

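H3K27-Ac ChIP-seq was made on 3 tumour cell clones, with IgG as the control. Single-end reads had been aligned by the authors with Bowtie2 (GRCm38). The submitters' processing notes name MACS2 2.1.1. Peaks were called per clone, after the 2 libraries of clone 3 had been pooled. Each deposited peak has a fold enrichment, the ratio of scaled ChIP pileup to local background at the summit, with 1 added to both. The authors' lists also give the p-value and q-value as −log10. Peak names say that mapping bias between alleles was filtered in clones 1 and 2 and do not say so for clone 3.

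ChIP reads and background were solved from fold enrichment and p for 99.99% or more of the peaks of each list. Tested on simulated data, 100% and 99.965% of 2988 and 2862 simulated peaks were returned correctly. The estimated depth assumes MACS2's default mouse genome size. Peaks outside the assembled chromosomes (5, 21 and 3) were left out. Starts and genes came from GENCODE M21, promoter sequences from RefSeq (GRCm38.p6), and all coordinates count from 1. Symbols of 4 listed genes were updated (Mkl1, Mkl2, Cyr61 and Ctgf, now Mrtfa, Mrtfb, Ccn1 and Ccn2). Lists are given as counts with up to 5 genes named by mean domain percentile, and all 10 AP-1 genes are described. Batf3, Nfe2l3, Nrl, Mapk8 to Mapk10, Elk4, Arc and Dusp2 were also named after their values were seen, and so were the choices of TGACG, TGACATCA, TTACCTCA, the search for TGANTCA over whole regions and the comparison of controls between clones. The genes and lists were chosen with earlier results of these data known. No test between groups was made. Tables were made in pandas 2.3.3 and numpy 2.4.6 under Python 3.11.15, intervals in scipy 1.17.1 and plots in matplotlib 3.10.9.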

Additional observations from a re-analysis of the deposited data

How the results depend on the processing

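The count of genes with a promoter peak in every clone stayed at 9 under all alternatives but one, a peak that covers a start base, which gave 7. That alternative lowered the share over all protein-coding genes from 46.54% to 39.06%. Ranking promoters by −log10 p instead of fold enrichment raised the median percentile of the AP-1 genes from 84.89 to 92.00, as a mean over clones. The median domain percentile moved from 97.89 to 96.54 with a −log10 q of at least 5, to 94.80 with a joining distance of 5 kb and to 93.37 by span. The median length under peaks was 17.85 kb, 25.99 kb within 200 kb and 8.91 kb without peaks at starts of other genes. The share of regions in every clone was 29.77%. It was 42.54% with the same number of peaks per clone, where all regions had 35.24%, and 17.94% with summits within 250 bp, for which no share over all regions was computed. Leaving out 1 clone gave 32.06% to 61.59%, highest without clone 2. TGANTCA at summits went from 6.37% to 5.73% with a −log10 q of at least 5, 3.33% within 50 bases, 17.18% within 250 bases and 7.41% away from promoters, where all peaks had 4.94%, 4.32%, 2.26%, 16.08% and 6.66%. In all, 41 of 56 alternative values stayed within the SD over clones, the Wilson interval of the share of regions (24.56% to 35.57%) or 1.5 times the count. The cause of the other 15 was not tested. Leaving out 1 of 3 clones always moves a mean of per-clone values by less than its SD. It also cannot lower the count of genes with a promoter peak in every clone. Those alternatives were thus bound to stay within the limits and say nothing on robustness. The 3 clones limit the precision of every mean, and sites below the least listed reads are missed. No paired analysis was possible because there is 1 condition and the control libraries have no lists of their own.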
